A study of Homo sapiens with 24 samples.

Results

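The EHD family consists of EHD1, EHD2, EHD3 and EHD4, 4 of the 60563 named genes in the count table. The members were chosen by gene symbol, and all 4 were among the 18295 genes that were tested. EHD3 was singled out because its pattern across the lines was already known, so its values are given as a description with no test. EHD1, EHD2 and EHD4 came in as its relatives. RNA sequencing was performed on 24 libraries of NCI-H1299, a human non-small cell lung cancer line that is p53 null. The control cells carried the empty vector. The 5 clonal lines were made from the same p53 null parent with a plasmid and stably expressed 1 of a pair of p53 forms that lack the start of the protein. Clones 1, 2 and 8 expressed the α form and are called Δ133p53α1, Δ133p53α2 and Δ133p53α8. Clones 5 and 10 expressed the β form and are called Δ133p53β5 and Δ133p53β10. Each line is 1 clone, so the clone and the isoform it expresses cannot be told apart within a line. There were 4 libraries for the control, 4 for each Δ133p53α line, 3 for Δ133p53β5 and 4 for Δ133p53β10. A further Δ133p53β library is called clone 10 by its label, but the count table names 4 libraries for each clone where the labels name 3 and 5. Its values are given separately, and it was left out of the tests. Nothing in the labels says that the libraries of a line came from separate cultures, so p-values measure the spread between these libraries. The comparison between the isoforms sets 2 Δ133p53β clones against 3 Δ133p53α clones. Its standard errors and p-values hold no term for the spread between clones.

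EHD proteins are ATPases that bind and bend membranes and assemble into rings on endosomal tubules. Each has a C-terminal EH domain, which binds short motifs in partner proteins. EHD1 and EHD3 act at the recycling endosome, from which receptors and integrins return to the cell surface. EHD4 acts at the early endosome, and EHD2 sits at the necks of caveolae, where it holds them at the plasma membrane. The experiment asked which transcripts differ when Δ133p53α or Δ133p53β is added to p53 null cells, in a study of brain metastasis that also measured proteins at the cell surface.

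Total counts ranged from 21531599 to 25381731 reads a library. Keratin genes KRT8 and KRT18 and the mesenchymal gene VIM had at least 11255 reads in each library, CDH2 had 282 to 1157, and the epithelial gene EPCAM had at most 5. PTPRC of blood cells was at 0 in all 24 libraries and PECAM1 of endothelium had at most 17 reads. The libraries also fell into 2 sets of 12 by how counts related to gene length. Spearman's rho between exon length and a gene's deviation from its mean was 0.18 to 0.30 in the first set (the positive set) and -0.27 to -0.11 in the other (the negative set). The positive set held 3 of 4 control, 1 of 4 Δ133p53α1, 3 of 4 Δ133p53α2, 3 of 4 Δ133p53α8, 1 of 3 Δ133p53β5 and 1 of 4 Δ133p53β10 libraries. Because the sets were unevenly spread over the lines, values by set are given beside the results they touch.

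The 4 genes lie on separate chromosomes of GRCh38 and are similar enough that their reads have to be told apart. EHD1 (ENSG00000110047) lies on the minus strand at chr11:64851642-64888296 and encodes 534 residues. EHD2 (ENSG00000024422) lies on the plus strand at chr19:47713422-47743134 and encodes 543 residues. EHD3 (ENSG00000013016) lies on the plus strand at chr2:31234152-31269451 and encodes 535 residues. EHD4 (ENSG00000103966) lies on the minus strand at chr15:41895933-41972557 and encodes 541 residues.

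The reads were 100 bases long, so stretches of that length were compared between the coding sequences. The closest stretch of EHD3 and EHD1 differed at 6 bases, that of EHD3 and EHD4 at 10, and that of EHD3 and EHD2 at 15. These pairs are shown because they are the places where a read of EHD3 most resembles a read of a relative. Capitals mark the bases that differ within a pair, and each sequence is written 5′ to 3′ in the direction of its gene. The EHD3 stretches are at chr2:31260629-31260728 in exon 4 of 6, chr2:31234739-31234838 in exon 1 and chr2:31261549-31261648 in exon 5. The others are at chr11:64860118-64860217 in exon 3 of 5 of EHD1, chr15:41972269-41972368 in exon 1 of 6 of EHD4, and chr19:47736369-47736468 in exon 5 of 6 of EHD2.
EHD3, pair with EHD1: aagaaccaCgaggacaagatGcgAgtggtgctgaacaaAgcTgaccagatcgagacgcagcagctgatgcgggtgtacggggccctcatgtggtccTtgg
EHD1: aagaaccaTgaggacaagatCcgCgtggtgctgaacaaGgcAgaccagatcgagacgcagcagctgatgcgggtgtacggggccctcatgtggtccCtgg
EHD3, pair with EHD4: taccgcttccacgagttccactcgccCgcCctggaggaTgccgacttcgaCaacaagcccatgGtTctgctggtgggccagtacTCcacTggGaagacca
EHD4: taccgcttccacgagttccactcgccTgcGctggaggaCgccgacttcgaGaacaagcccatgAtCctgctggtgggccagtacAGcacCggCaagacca
EHD3, pair with EHD2: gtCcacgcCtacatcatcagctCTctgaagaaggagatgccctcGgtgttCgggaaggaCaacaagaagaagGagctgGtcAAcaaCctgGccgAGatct
EHD2: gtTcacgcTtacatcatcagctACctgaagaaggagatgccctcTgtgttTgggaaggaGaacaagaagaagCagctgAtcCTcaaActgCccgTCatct

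The longest run of identical bases between EHD3 and EHD1 was 54, so no read of 100 bases from one coding sequence occurs unchanged in the other. None of the 4726 stretches of 100 bases in the EHD3 transcript occurred in another annotated gene, and the same held for the 4354 of EHD1 and the 3407 of EHD2. For EHD4, 3497 of 6302 stretches lie in ENSG00000174171, a gene on the opposite strand. The libraries were strand-specific, but the strand setting of the counting is not given in the sources used here, so the EHD4 values may hold reads of that gene or lack reads shared with it. ENSG00000174171 itself was at 8.12 to 39.5 CPM, which is the read count scaled to a common library size.

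EHD3 transcripts were most abundant in control cells, lower in the Δ133p53α lines and close to absent in the Δ133p53β lines. CPM values were scaled by the effective library sizes of the trimmed mean of M values (TMM) method. The mean was 8.39 ± 2.1 CPM (SD, n = 4) in control, 4.10 ± 1.51 CPM (n = 12) over the Δ133p53α libraries and 0.205 ± 0.0703 CPM (n = 8) over the Δ133p53β libraries. Of the control level, 48.9% was left in the Δ133p53α libraries and 2.44% in the Δ133p53β libraries. In bulk RNA, fewer cells with the transcript and less transcript per cell cannot be told apart.

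The 4 control libraries had 220, 173, 302 and 153 EHD3 reads. Δ133p53α2 had 94, 152, 155 and 137 reads, Δ133p53α8 had 81, 67, 82 and 78, and Δ133p53α1 had 104, 64, 50 and 33. All 12 Δ133p53α libraries kept at least 33 reads. Δ133p53β5 had 8, 5 and 4 reads, and Δ133p53β10 had 4, 5, 4 and 4. The Δ133p53β library of unclear clone had 2. The 8 Δ133p53β libraries held 36 EHD3 reads together, and none of them overlapped with the Δ133p53α libraries.

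On the CPM scale the order of the lines was control, Δ133p53α2 (5.95 ± 0.587, n = 4), Δ133p53α8 (3.32 ± 0.167, n = 4), Δ133p53α1 (3.03 ± 1.04, n = 4), Δ133p53β5 (0.251 ± 0.0818, n = 3) and Δ133p53β10 (0.196 ± 0.0371, n = 4). Control and Δ133p53α2 overlapped, since the lowest control library was at 6.46 CPM and the highest Δ133p53α2 library at 6.54. Δ133p53α8 and Δ133p53α1 overlapped, and so did Δ133p53β5 and Δ133p53β10. The ranges of Δ133p53α2 and Δ133p53α8 did not overlap (5.37 against 3.46 CPM at their nearest), and neither did those of Δ133p53α1 and Δ133p53β5 (1.79 against 0.342 CPM). As a ratio of means, the gap between the isoforms was wider than any gap between lines of 1 isoform.

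The fitted log2 fold change of EHD3 against control was -0.52 (SE 0.240) in Δ133p53α2, -1.36 (SE 0.244) in Δ133p53α8 and -1.49 (SE 0.246) in Δ133p53α1. It was -5.04 (SE 0.344) in Δ133p53β5 and -5.43 (SE 0.313) in Δ133p53β10. The mean of the Δ133p53β lines minus the mean of the Δ133p53α lines was -4.11 (SE 0.222). From pooled reads, control was 33.5 times Δ133p53β5, with an exact interval of 20.8 to 57.8, and 43.8 times Δ133p53β10, with an interval of 27.2 to 75.6. Those intervals cover counting error only. The 2 reads of the unclear clone gave a ratio of 82.5, with an interval of 22.8 to 682. The background for these comparisons, the share of all tested genes that passed an adjusted p of 0.05 in the lower direction, was 2.89% for Δ133p53α1, 3.21% for Δ133p53α2, 2.68% for Δ133p53α8, 4.9% for Δ133p53β5, 5.58% for Δ133p53β10 and 2.54% for Δ133p53β against Δ133p53α. Nothing is read from these shares for EHD3, which was chosen for this pattern.

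The difference in EHD3 between the isoforms was present in both library sets. In the positive set, the 3 control libraries averaged 8.37 CPM, the Δ133p53α lines lay between 3.26 and 6.54, and the 2 Δ133p53β libraries were at 0.342 and 0.166. In the negative set, the 1 control library was at 8.44 CPM, the Δ133p53α libraries lay between 1.79 and 5.37, and the Δ133p53β libraries between 0.103 and 0.242. Within Δ133p53α1, the 1 library of the positive set was the highest of the line (4.29 CPM). In each of the other 2 Δ133p53α lines, the 1 library of the negative set was the lowest (5.37 and 3.11 CPM).

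**Figure D1:**
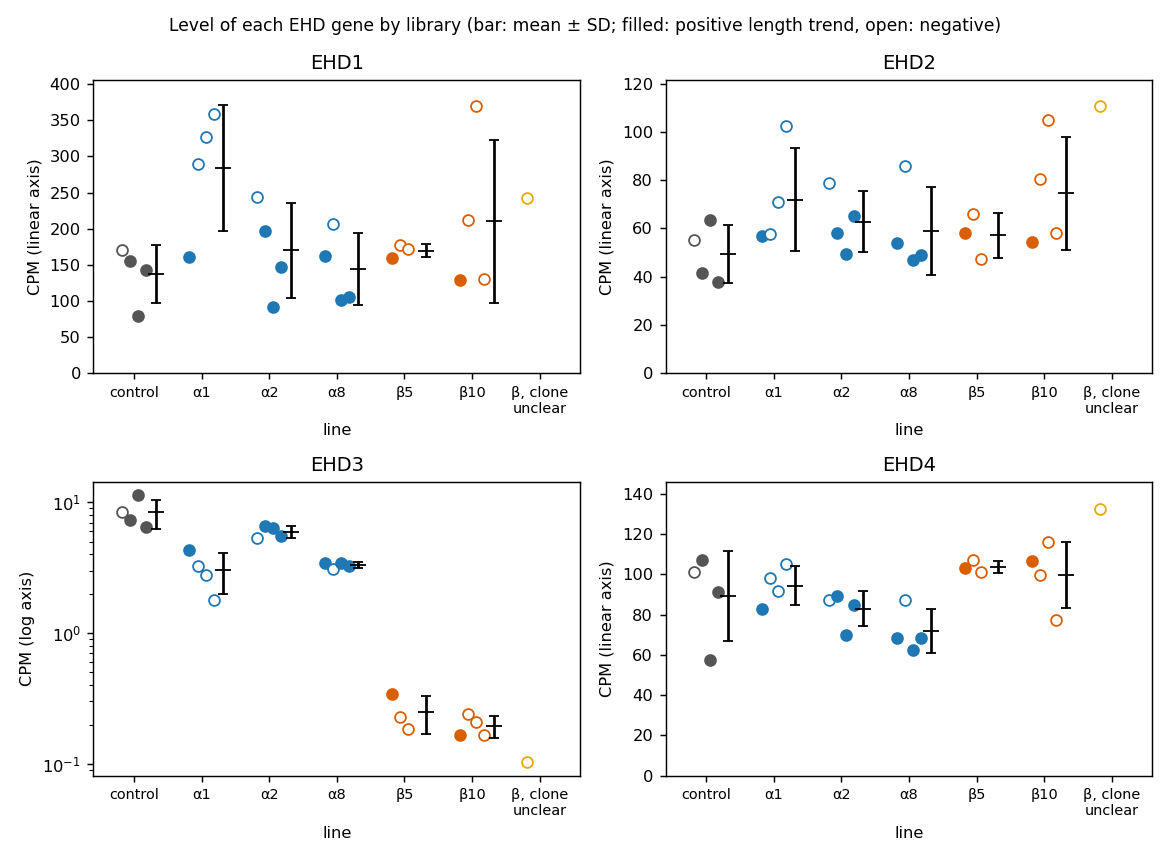
Level of EHD1, EHD2, EHD3 and EHD4 in each of the 24 libraries, in CPM on a linear axis and on a log axis for EHD3, by line, with the mean ± SD as a bar; filled points are libraries of the positive set and open points those of the negative set. The 8 Δ133p53β libraries lie at or below 0.342 CPM for EHD3 and the 12 Δ133p53α libraries at or above 1.79 CPM, while the lines overlap for the other members.

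EHD1, the closest relative of EHD3, did not pass the test in any comparison, and its largest difference was a higher level in Δ133p53α1. The control libraries were at 171, 155, 79.5 and 142 CPM and the Δ133p53α1 libraries at 160, 289, 327 and 358 CPM. Δ133p53α2 was at 244, 197, 91.6 and 148 CPM and Δ133p53α8 at 163, 206, 102 and 106 CPM. In these lines 3 of 4 Δ133p53α1 libraries were above each control library, while Δ133p53α2 and Δ133p53α8 spread around the control. Δ133p53β5 was at 160, 177 and 172 CPM, Δ133p53β10 at 129, 211, 369 and 131 CPM, and the unclear clone at 243 CPM. The spread within Δ133p53β10 (210 ± 113, n = 4) was as wide as that between lines.

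The log2 fold change of EHD1 in Δ133p53α1 was 1.01 (SE 0.351) with an adjusted p of 0.0957 in edgeR's quasi-likelihood test. DESeq2 gave 1.04 with an adjusted p of 0.0483, which passes, and without the Δ133p53α1 replicate 1 library edgeR gave 1.24 with an adjusted p of 0.0279. Over all alternatives the adjusted p ranged from 0.0279 to 0.25. The 95% interval of the edgeR value was 0.28 to 1.74. That replicate 1 library was the 1 library of Δ133p53α1 in the positive set. EHD1 averaged 136 ± 35.0 CPM in the 12 libraries of the positive set and 242 ± 78.5 CPM in the 12 of the negative set. Within the positive set the Δ133p53α1 library was at 160 CPM and the 3 control libraries at 79.5 to 155. Within the negative set the 3 Δ133p53α1 libraries were at 289 to 358 CPM and the control library at 171. With the library set as a term in the fit, the log2 fold change was 0.65 (SE 0.289) and the adjusted p was 0.19.

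In the other comparisons the EHD1 intervals spanned 0. The log2 fold change was 0.28 (95% interval -0.44 to 1.01, adjusted p 0.791) in Δ133p53α2 and 0.06 (-0.67 to 0.78, adjusted p 0.981) in Δ133p53α8. It was 0.30 (-0.48 to 1.08, adjusted p 0.699) in Δ133p53β5 and 0.57 (-0.16 to 1.29, adjusted p 0.292) in Δ133p53β10. Between the isoforms the difference was -0.02 (-0.51 to 0.47, adjusted p 0.987). A change of EHD1 of the size fitted for EHD3 in the Δ133p53β lines lies outside each of these intervals.

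EHD2, the caveolar member, was between 37.8 and 111 CPM in all libraries and did not pass the test in any comparison. Control was at 55.1, 41.4, 63.6 and 37.8 CPM. Δ133p53α1 was at 56.9, 57.5, 70.8 and 102 CPM, Δ133p53α2 at 78.8, 58.2, 49.3 and 65.1 CPM and Δ133p53α8 at 53.9, 85.9, 47.0 and 48.8 CPM. Δ133p53β5 was at 58.1, 66.0 and 47.1 CPM, Δ133p53β10 at 54.4, 80.4, 105 and 58.1 CPM, and the unclear clone at 111 CPM. The control had the lowest mean of the 6 groups, at 49.5 ± 12.0 CPM (n = 4), and Δ133p53β10 the highest, at 74.5 ± 23.4 CPM (n = 4), but neighbours in the order overlapped throughout.

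The largest log2 fold change of EHD2 was 0.54 (SE 0.254, 95% interval 0.02 to 1.07) in Δ133p53β10, with an adjusted p of 0.17. It was 0.50 in Δ133p53α1 (adjusted p 0.212), 0.32 in Δ133p53α2 (adjusted p 0.618), 0.23 in Δ133p53α8 (adjusted p 0.795) and 0.20 in Δ133p53β5 (adjusted p 0.734). Between the isoforms it was 0.02 (95% interval -0.34 to 0.37, adjusted p 0.978). EHD2 also differed between the library sets, with a mean of 52.9 ± 8.34 CPM in the positive and 76.5 ± 21.1 CPM in the negative set. With the set as a term, the Δ133p53β10 value was 0.33 (adjusted p 0.363) and the isoform difference turned to -0.08 (adjusted p 0.772).

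EHD4 had the most even levels of the family and did not pass the test in any comparison. Control was at 101, 107, 57.2 and 91.2 CPM. Δ133p53α1 was at 82.7, 98.1, 91.7 and 105 CPM, Δ133p53α2 at 87.1, 89.1, 70.0 and 84.9 CPM and Δ133p53α8 at 68.3, 87.4, 62.3 and 68.6 CPM. Δ133p53β5 was at 103, 107 and 101 CPM, Δ133p53β10 at 106, 99.4, 116 and 77.5 CPM, and the unclear clone at 133 CPM. The means were 82.9 ± 13.1 CPM (n = 12) over the Δ133p53α libraries and 105 ± 15.6 CPM (n = 8) over the Δ133p53β libraries, with overlapping ranges.

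The log2 difference of EHD4 between the isoforms was 0.30 (SE 0.121, 95% interval 0.05 to 0.55), with an adjusted p of 0.187. Over the alternatives this value ran from 0.26 to 0.35 with an adjusted p of 0.0946 to 0.446. The overlapping gene on the other strand was also higher in the Δ133p53β libraries, at 26.2 ± 7.87 CPM against 16.3 ± 5.65 CPM, and its part in the EHD4 value was not tested. Against control, EHD4 differed by 0.05 in Δ133p53α1 (adjusted p 0.868), -0.13 in Δ133p53α2 (adjusted p 0.822), -0.33 in Δ133p53α8 (adjusted p 0.416), 0.21 in Δ133p53β5 (adjusted p 0.588) and 0.12 in Δ133p53β10 (adjusted p 0.68) on the log2 scale. By library set, EHD4 was at 82.6 ± 17.4 CPM in the positive and 100 ± 14.4 CPM in the negative set.

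Of the 18 tests of EHD1, EHD2 and EHD4, edgeR called 0 at an adjusted p under 0.05. An unadjusted p under 0.05 was found in 3: EHD1 in Δ133p53α1, EHD2 in Δ133p53β10 and EHD4 between the isoforms. The share of all tested genes with an unadjusted p under 0.05 was not counted, so nothing is read from these 3. DESeq2 called 1 and limma with voom weights called 0. DESeq2 also called more of all tested genes, 1304 to 2865 a comparison against 825 to 1794 by edgeR. The share of all tested genes called by edgeR in either direction was 4.83% for Δ133p53α1, 5.28% for Δ133p53α2, 4.51% for Δ133p53α8, 8.03% for Δ133p53β5, 9.81% for Δ133p53β10 and 4.76% for the isoforms, so 0 calls among 3 genes is what that background would give.

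**Figure D2:**
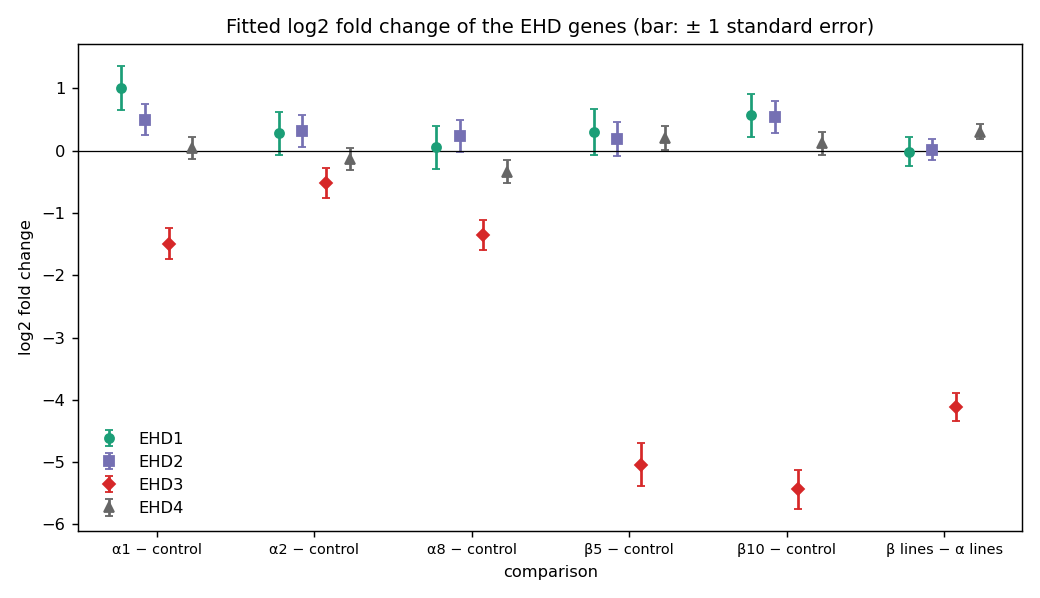
Fitted log2 fold change of each EHD gene in the 6 comparisons, with bars of ± 1 standard error. EHD3 lies at -5.04 and -5.43 in the Δ133p53β lines and between -0.52 and -1.49 in the Δ133p53α lines, and the other members lie between -0.33 and 1.01.

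Levels of different members were compared per kilobase of exon. In control cells EHD1 was at 19.4 ± 5.68 CPM per kilobase, EHD2 at 12.9 ± 3.13, EHD4 at 11.3 ± 2.84 and EHD3 at 1.74 ± 0.435 (n = 4 each). EHD3 was thus the minor member even where it was highest, with 3.97 ± 1.53% of the family total per length. Its share was 2.52 ± 0.84% in Δ133p53α2, 1.6 ± 0.44% in Δ133p53α8 and 0.99 ± 0.602% in Δ133p53α1. In the Δ133p53β libraries it was 0.0758 ± 0.0325% (n = 8), and it ranged from 0.0267% to 0.139%. EHD1 had the highest mean share in each line, from 42.1% in control to 55.3% in Δ133p53α1. Over the 24 libraries the median ratio per length was 1.51 for EHD1 to EHD2, and it ranged from 0.678 to 2.73, so EHD2 exceeded EHD1 in at least 1 library. The ratio of EHD1 to EHD4 was 1.35 or more in each library.

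EHD3 has a head-to-head neighbour. CAPN14, which encodes a calpain protease, lies on the opposite strand and ends its annotated span 294 bases before the annotated start of EHD3. The start region of EHD3 is shown because the genes face each other across it. The window, chr2:31233902-31234201 of GRCh38.p14 on the plus strand, runs from 250 bases before the RefSeq start of EHD3 to 50 bases after it. Capitals mark CG, the dinucleotide at which DNA is methylated and which reads the same on both strands.
EHD3 start region: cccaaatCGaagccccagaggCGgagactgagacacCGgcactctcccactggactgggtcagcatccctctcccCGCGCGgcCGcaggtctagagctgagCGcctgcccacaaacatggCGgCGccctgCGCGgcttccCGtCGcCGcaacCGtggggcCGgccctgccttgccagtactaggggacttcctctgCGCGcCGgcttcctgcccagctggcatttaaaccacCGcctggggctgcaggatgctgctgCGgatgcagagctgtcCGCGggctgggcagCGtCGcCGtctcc

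That window holds 27 CG dinucleotides, against a median of 14 over the 35116 RefSeq start windows of the same length, and 28.2% of windows hold at least 27. The EHD2 window holds 30 and the EHD4 window 27. EHD1 has 2 windows with 33 and 4. DNA methylation was not measured here, so these counts describe the sequence only.

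The other coding genes within 500000 bases of EHD3 were CAPN13, GALNT14, XDH and SRD5A2. CAPN13 and SRD5A2 were at 0 or 1 read in each library. CAPN14 had 4, 1, 7 and 2 reads in control, 0 to 3 in the Δ133p53α libraries and 0 in 8 of 8 Δ133p53β libraries. CAPN14 was thus at or near the floor of 3 reads everywhere, and no fold is given for it.

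GALNT14, an enzyme that starts O-linked sugar chains, lies 78950 bases from EHD3 and followed another pattern. It had 168, 179, 130 and 158 reads in control, 5 to 16 in Δ133p53α1 and at most 2 in every other library. Control was 12.4 times Δ133p53α1 in pooled reads (exact interval 9.06 to 17.5) and 571 times Δ133p53α2, whose 1 read gave an interval of 102 to 22570. Thus Δ133p53α2 was the line with the most EHD3 among the clones and had 1 GALNT14 read in all. GALNT14 was low in each of the 5 lines, and EHD3 was low in those with Δ133p53β.

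XDH, the xanthine oxidoreductase of purine breakdown, lies 64870 bases beyond the other end of EHD3. It had 36, 9, 36 and 6 reads in control, 1 to 17 in the Δ133p53α libraries and 0 or 1 in the Δ133p53β libraries. Its order by isoform was that of EHD3, but the control and Δ133p53α libraries overlapped. Control was 3.22 times the Δ133p53α libraries (exact interval 2.33 to 4.47) and 75.9 times the Δ133p53β libraries, which had 2 reads together (interval 20.4 to 637). These neighbours are a description, since they were looked at because of EHD3.

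**Figure D3:**
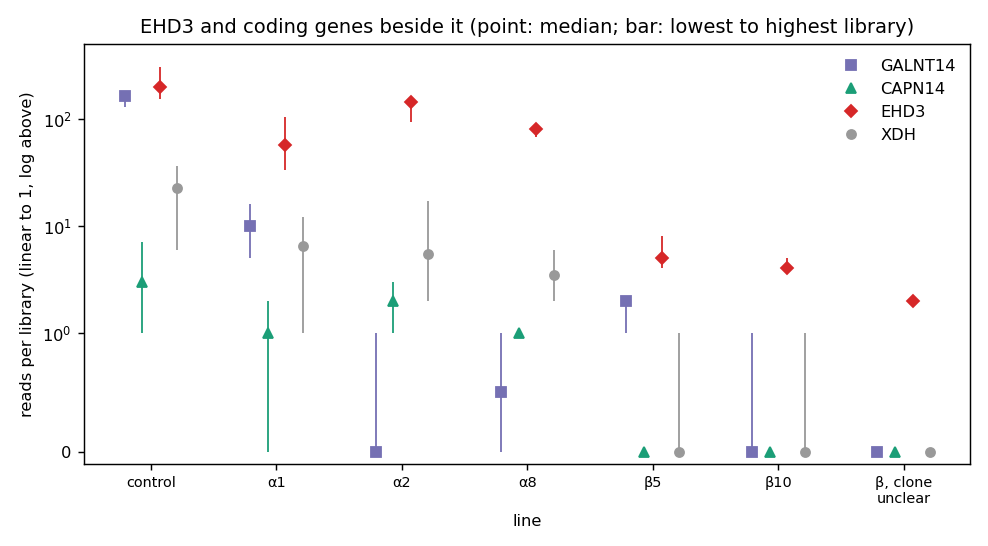
Reads per library of EHD3 and of GALNT14, CAPN14 and XDH, the coding genes near it, by line; points are medians, bars run from the lowest to the highest library, and the axis is linear up to 1 read and logarithmic above. GALNT14 is at 16 reads or fewer in all 5 lines, whereas EHD3 stays at 33 reads or more in the Δ133p53α lines and XDH stays above 0 there.

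Calls among the neighbours of the other members are given as counts. Across the whole tested set, the called share lay between 4.51% (Δ133p53α8) and 9.81% (Δ133p53β10). Whether the neighbours depart from that background was not tested. Of 29 tested coding genes within the same distance of EHD1, 1 was called in Δ133p53α1 (SYVN1, higher) and 1 in each Δ133p53β line (CDC42BPG, lower). Of 15 near EHD2, CARD8 was lower in all 5 lines, BICRA was lower in Δ133p53α2, and ZSWIM9 was lower in the Δ133p53β than in the Δ133p53α lines. Of 13 near EHD4, PLA2G4B was lower in Δ133p53β5.

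The genes whose line means lay nearest to those of each member were also found, by the root mean square difference of centred log2 means over the 6 groups. For EHD3 the nearest was PPL, the cell junction protein periplakin, at a distance of 0.418. It was followed by CDCP1, a transmembrane substrate of Src kinases (0.658), FTCD, a folate enzyme (0.728), and MYRIP, which links Rab27 to myosin (0.736). PPL averaged 17.8 ± 17.4 CPM in control, 4.69 ± 3.09 over the Δ133p53α libraries and 0.478 ± 0.309 over the Δ133p53β libraries. CDCP1 was at 116 ± 66.4 CPM in control, 71.2 ± 20.5 with Δ133p53α and 14.8 ± 6.61 with Δ133p53β. The nearest genes to EHD1 were DPP3-DT (0.032) and PLA2G15 (0.0351), to EHD2 GAS5 (0.0324) and HAS3 (0.0327), and to EHD4 ENSG00000265399 (0.037). Those distances are smaller, and EHD1, EHD2 and EHD4 also varied less between the lines than EHD3. Whether the distances depend on that was not tested, and they are descriptions over 6 points.

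Genes that work with the EHD proteins were counted in 6 lists of 68 genes, of which 62 were tested. Of these 62, calls were made for 3 in Δ133p53α1, for 6 in Δ133p53α2, for 3 in Δ133p53α8, for 6 in Δ133p53β5, for 5 in Δ133p53β10 and for 4 between the isoforms. Those are 4.84%, 9.68%, 4.84%, 9.68%, 8.06% and 6.45% of the list genes, against 4.83%, 5.28%, 4.51%, 8.03%, 9.81% and 4.76% of all tested genes. The count in Δ133p53α1 rests on its replicate 1 library, without which 17 list genes and 4264 of all genes were called in place of 3 and 884.

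Among 11 direct partners of the EHD proteins, SNAP29, a SNARE of membrane fusion, was called as higher in Δ133p53α2, by 0.54 (SE 0.154, adjusted p 0.0427). That call was lost in 18 of 32 alternatives. It was 1 of 11 genes (9.09%), beside 5.28% of all tested genes. The other comparisons had 0 calls in this list by edgeR, with unadjusted p-values under 0.05 in 4 of 11 genes for Δ133p53α1, 1 for Δ133p53α8, 3 for Δ133p53β5, 2 for Δ133p53β10 and 2 for the isoforms. The share of all tested genes with such an unadjusted p was not counted. DESeq2 called 7 of the 66 tests of this list and limma 1. Over all 18295 tested genes DESeq2 called 1304 to 2865 a comparison, against 825 to 1794 by edgeR. MICALL1, the adaptor that brings EHD1 to tubules, had log2 fold changes of 0.06 to 0.65 in the lines. The median log2 fold change of the list was 0.11 for the Δ133p53α2 line, against 0.0096 over all tested genes. For the Δ133p53β5 and Δ133p53β10 lines it was -0.36 and -0.32, against -0.03 and -0.05. It was -0.34 and -0.25 for the Δ133p53α1 and Δ133p53α8 lines, against -0.08 and -0.02, and -0.21 between the isoforms, against -0.01.

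Of the caveolar coat genes, which act with EHD2, 4 of 7 were tested and 0 were called by edgeR in any comparison. An unadjusted p under 0.05 was found in 5 of 24 tests, and DESeq2 called 1 and limma 0. The share of all tested genes with such an unadjusted p was not counted. DESeq2 also called more of all tested genes than edgeR did, as given above. CAVIN1, which builds the coat, was at 284 ± 77.9 CPM in control and 462 ± 112 CPM over the 20 libraries of the clones. CAV1, its main membrane protein, was at 169 ± 59.4 CPM in control, 235 ± 57.6 with Δ133p53α and 178 ± 39.6 with Δ133p53β.

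Of the 30 genes of the recycling endosome machinery, 29 were tested. Calls were made for 5 (17.2%) in the Δ133p53β10 line and 4 (13.8%) in the Δ133p53β5 line, beside 9.81% and 8.03% of all tested genes. The Δ133p53α1 and Δ133p53α2 lines had 3 each (10.3%), beside 4.83% and 5.28%. The Δ133p53α8 line and the comparison between isoforms had 2 each (6.9%), beside 4.51% and 4.76%. RAB11FIP3, a Rab11 and Arf6 effector of the recycling endosome, was lower in the Δ133p53β lines. It was at 44.7 ± 4.08 CPM in control (40.8 to 50.4), 37.3 ± 4.76 CPM over the 12 Δ133p53α libraries (28.8 to 43.4) and 20.3 ± 3.21 CPM over the 8 Δ133p53β libraries (17.0 to 26.1). The Δ133p53β libraries did not overlap with the others. Its log2 fold change was -1.07 (SE 0.166, adjusted p 0.000291) in Δ133p53β5 and -1.36 (SE 0.152, adjusted p 5.03e-06) in Δ133p53β10, and the isoform difference was -0.93 (SE 0.105, adjusted p 6.33e-06). These 3 calls held in all 32 alternatives, the library set term among them. How many of all tested genes set the Δ133p53β libraries apart from the others as fully as RAB11FIP3 was not counted. RAB11FIP4, a relative of RAB11FIP3, was low throughout, with 12 to 73 reads in control and 3 to 9 in the Δ133p53β libraries. It fell by 2.41 (SE 0.627, adjusted p 0.0188) in Δ133p53β5 and by 2.13 (SE 0.551, adjusted p 0.0164) in Δ133p53β10 on the log2 scale, and these calls were lost in 4 and 3 of 31 alternatives. The first was lost without any 1 of the Δ133p53β5 libraries or control replicate 3 (adjusted p up to 0.125), and the other without Δ133p53β10 replicate 3 or 4 or control replicate 3 (up to 0.124).

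MYO5B and VPS35L changed in all 5 lines. MYO5B, the myosin motor that Rab11 uses on recycling vesicles, was at 9.58 ± 2.76 CPM in control and 25.5 ± 7.98 CPM over the clones, and no clonal library (lowest 15.3) overlapped with control (highest 12.0). Its log2 fold change ran from 1.01 in Δ133p53α1 (adjusted p 0.0491) to 1.68 in Δ133p53α8 (adjusted p 0.00115). The Δ133p53α1 call was lost in 9 of 32 alternatives (adjusted p up to 0.135 without Δ133p53α1 replicate 2), and that in Δ133p53β10 without control replicate 1 (0.0535) or 3 (0.0788). VPS35L, a subunit of the retriever complex that returns integrins to the surface, was at 74.4 ± 11.1 CPM in control (65.7 or more) and 42.9 ± 4.32 CPM over the clones (51.6 or less). It fell by between 0.67 and 0.91 on the log2 scale, with adjusted p-values from 0.0004 to 0.00674. The Δ133p53α2 call was lost with no filter (adjusted p 0.0942), and the calls in the other 4 lines held in all 32 alternatives. How many of all tested genes set control apart from the clones as fully as MYO5B and VPS35L was not counted. RAB4A in Δ133p53α2 (-0.79, adjusted p 0.0147), VPS26C in Δ133p53α1 (-0.67, adjusted p 0.0236) and VPS29 in Δ133p53β10 (0.61, adjusted p 0.0307) and between the isoforms (0.41, adjusted p 0.0479) were the other calls of this list. Each was lost in some alternatives, in 2, 7, 7 and 21 of 32.

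Among the 7 other proteins with EH domains, REPS2, which takes part in receptor endocytosis, was higher in Δ133p53α2 (log2 fold change 1.49, adjusted p 0.00516) and Δ133p53α8 (1.16, adjusted p 0.0352). The latter call was lost without Δ133p53α8 replicate 2 or 3 or control replicate 1, 2 or 4 (adjusted p up to 0.11). REPS2 was at 7.53 ± 1.75 CPM over the Δ133p53α libraries (5.30 to 11.2) and 3.26 ± 0.724 CPM over the Δ133p53β libraries (1.66 to 4.01), with an isoform difference of -1.24 (SE 0.220, adjusted p 0.00143). The isoform difference held in all 32 alternatives. Control was at 3.17 ± 1.91 CPM, near the Δ133p53β level. Each of these 3 calls was 1 of 7 genes (14.3%), beside 5.28%, 4.51% and 4.76% of all tested genes. The other comparisons had 0 calls in this list.

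Of 10 recycled cargo genes, 8 were tested. Calls were made for 1 (12.5%) in each of Δ133p53α2, Δ133p53β5 and the isoform comparison, beside 5.28%, 8.03% and 4.76% of all tested genes. The other comparisons had 0 calls in this list. ITGA5, the fibronectin receptor subunit, was lower in Δ133p53β5 (-1.02, adjusted p 0.0199) and IGF1R in Δ133p53α2 (-1.05, adjusted p 0.0489). These are transcript levels. By flow cytometry the paper reports more ITGα5 protein on the surface of Δ133p53α and Δ133p53β cells. In its qPCR, transcripts other than EGFR did not account for the surface increases. B2M, the light chain of MHC class I, was higher in the Δ133p53β than in the Δ133p53α lines (0.54, adjusted p 0.0255). The IGF1R call was lost in 20 of 32 alternatives. That of ITGA5 was lost without Δ133p53β5 replicate 2 or 3 or control replicate 3 (adjusted p up to 0.158) and with the unclear library counted in, and that of B2M without Δ133p53β5 replicate 2 or 3 or Δ133p53β10 replicate 4 (up to 0.111) and with no filter. Of the 3 dynamins, which cut vesicles from membranes, DNM1 was lower in Δ133p53β5 (-2.15, adjusted p 0.0214), and that call was lost when the unclear library was counted as Δ133p53β5 and without any 1 of its libraries or control replicate 3 (adjusted p up to 0.116). It was 1 of 3 genes (33.3%), beside 8.03% of all tested genes, and the dynamins had 0 calls in the other comparisons.

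**Figure D4:**
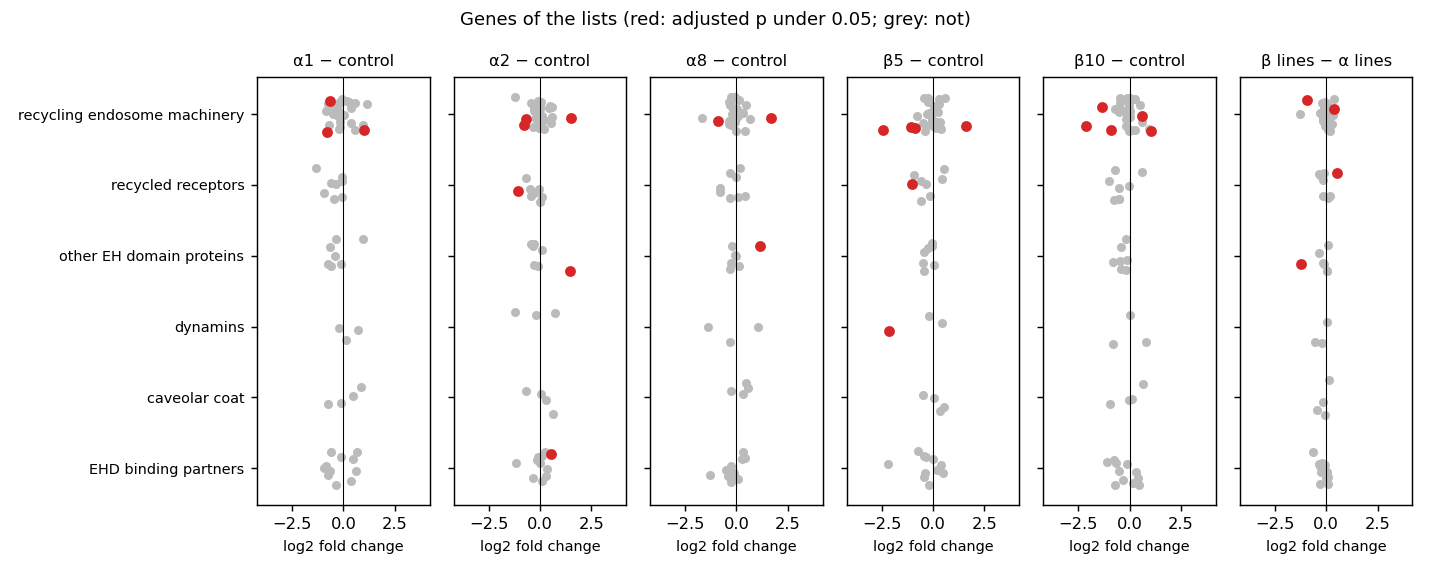
Fitted log2 fold change of each tested gene of the 6 lists in the 6 comparisons, 1 point a gene; red points passed an adjusted p of 0.05 and grey points did not. The called genes are 3 to 6 of 62 in each comparison, and 2 to 5 of them lie in the recycling endosome list, which holds 29 of the 62 genes.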

How the data were processed

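RNA was extracted from NCI-H1299 vector control cells and 5 clonal lines, and poly(A) libraries that mark strand were sequenced with reads of 100 bases. The authors trimmed the reads, aligned them to GRCh38 with HISAT2, and used featureCounts with Ensembl gene models to make read counts per gene. The deposited table holds these counts without normalization. Its 1 unnamed row, with 0 reads, was not used.

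Groups were taken from the labels. The main test was edgeR 4.0.16 (R 4.3.3): filterByExpr by group, TMM factors, and glmQLFit with glmQLFTest on 23 libraries in 6 groups with 17 residual degrees of freedom. The Δ133p53β library of unclear clone was not fitted. The p-values were adjusted by Benjamini-Hochberg over all 18295 tested genes, and a call needs an adjusted p under 0.05. Adjusted p-values in the text are edgeR's unless another tool is named. CPM used TMM sizes of all 24 libraries, and values per kilobase used the exon length of GENCODE. Transcript comparisons and coordinates used GENCODE on GRCh38, and the start windows are from RefSeq (GRCh38.p14). The likeness measure used log2 CPM with a prior count of 2. The test was checked on simulated counts in which 200 genes were changed 4-fold in Δ133p53β5. It called 153 of them (76.5%) and 10 unchanged genes. The 200 genes were drawn from those with a mean above 1 CPM, so the recovery does not cover genes below that level. The simulated counts held no difference between the library sets, so the check does not cover that feature of the data. Alternatives were RLE factors, other filters, DESeq2 1.42.0, limma 3.58.1 with voom, a replicate term, a library set term, the unclear library in either clone, and leaving out each library in turn. The members, the lists and the rule for named genes (the 4 members with their 5 nearest genes by line means, coding genes within 500000 bases, and list genes past the test or needed as an example) were chosen with earlier results of these data known, so they are not independent of them. Some genes that these rules pick are not reported here. Depth was 21531599 to 25381731 reads a library, and a count of 0 allows up to 3 reads. Reads had no molecular identifiers, so intervals from counts cover counting error only.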

Additional observations from a re-analysis of the deposited data

How the results depend on the processing

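EHD3 kept its direction in 54 of 54 values from alternatives that leave out no library and in 138 of 138 that leave out 1. EHD1, EHD2 and EHD4 kept their direction and stayed uncalled in 51, 53 and 53 of 54 values from the former and in 126, 129 and 136 of 138 from the latter. DESeq2 called EHD1 in Δ133p53α1 (1.04). The isoform difference of EHD1 turned to 0.058 with the unclear library in Δ133p53β5 and 0.0073 with it in Δ133p53β10, that of EHD2 to -0.080 with the library set term, and EHD4 in Δ133p53α1 to -0.016 with that term. Leaving out 1 library gave ranges of 0.86 to 1.24 for EHD1 in Δ133p53α1, -0.17 to 0.21 for EHD1 in Δ133p53α8, -0.23 to 0.073 for EHD1 between the isoforms, -0.0034 to 0.39 for EHD2 in Δ133p53α8, -0.090 to 0.10 for EHD2 between the isoforms, -0.083 to 0.18 for EHD4 in Δ133p53α1 and -0.0032 to 0.26 for EHD4 in Δ133p53β10. The values that turned were near 0 and not called, and the cause was not tested.

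The count of list genes called stayed within 1.5 times its value in 41 of 54 values from alternatives that leave out no library and in 127 of 138 that leave out 1. With DESeq2 it was 7 in Δ133p53α1, 5 in Δ133p53α8, 11 in Δ133p53β10 and 8 between the isoforms. With the library set term it was 5 in Δ133p53α1, 7 in Δ133p53α8, 12 in Δ133p53β5 and 7 between the isoforms. With no filter it was 1 in Δ133p53α1, 2 in Δ133p53α2 and 2 between the isoforms, and with the unclear library in Δ133p53β10 it was 10 in that line. Leaving out 1 library gave 1 to 17 in Δ133p53α1, 3 to 6 in Δ133p53α2, 3 to 7 in Δ133p53β5, 2 to 8 in Δ133p53β10 and 2 to 4 between the isoforms.

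The count over all genes did so in 46 of 54 and 122 of 138. DESeq2 called 1778 in Δ133p53α1, 1304 in Δ133p53α8, 2865 in Δ133p53β10 and 1358 between the isoforms, against 884, 825, 1794 and 870 by edgeR. The library set term gave 2267 in Δ133p53α2, 1910 in Δ133p53α8, 3176 in Δ133p53β5 and 2111 between the isoforms, against 966, 825, 1469 and 870. Leaving out 1 library gave 439 to 4264 in Δ133p53α1, 637 to 1028 in Δ133p53α2, 499 to 1060 in Δ133p53α8, 632 to 1597 in Δ133p53β5, 1072 to 3044 in Δ133p53β10 and 505 to 978 between the isoforms. The causes were not tested. At the depth of these libraries, the Δ133p53β level of EHD3 rests on 36 reads.

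The replicate block, with the replicate number as a term, changed no call of a member (EHD1 in Δ133p53α1 was 1.03 with an adjusted p of 0.135), and the list count in Δ133p53α1 went to 1. The deviations of same-numbered libraries from their line means had a median correlation of 0.00802 over 55 pairs (-0.88 to 0.889). Of 23 libraries, 6 correlated best with their own number. The library set was not taken out of these deviations, so a pairing by number could be hidden and is not excluded.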
